A study of Homo sapiens with 4 samples.

Results

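Histone genes were described as 86 protein-coding genes of the 48162 genes listed, chosen by symbol alone. Of these, 70 had symbols starting with HIST1H, HIST2H, HIST3H or HIST4H and form the replication-dependent class, and 16 had symbols starting with H2AF, H3F3 or H1F and form the class of replacement variants. RNA was sequenced from MDA-MB-231 cells, a human line long established from a triple-negative breast cancer. By the treatment labels and protocol, 2 libraries came from cells given vehicle and 2 from cells given MGH-CP1 at 10 µM, all for 24 h. According to the series title, MGH-CP1 blocks the palmitoylation of TEAD, the family of transcription factors through which YAP and TAZ act on DNA. No label says that replicates were separate cultures, so the p-values reflect the spread of these 4 libraries alone, and that spread may be technical.

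Replication-dependent histone genes lie in clusters, mostly without introns, and supply the bulk of new nucleosomes in S phase. Their usual mRNA ends in a short stem-loop that is bound by SLBP, the stem-loop binding protein, and carries no poly(A) tail. Replacement variants are made outside S phase as well, from dispersed genes, mostly with ordinary poly(A) mRNAs, and are placed at particular sites such as promoters, damaged DNA or silent chromatin. Several replication-dependent genes also give a longer poly(A) transcript, and these libraries were made from RNA captured on poly(A), so a level here is that of the captured transcript and not of all histone mRNA. In bulk RNA, fewer cells in S phase and less RNA per cell cannot be told apart.

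The stem-loop was searched for in the GENCODE 29 transcripts of 85 members as GGNNCTTTTNAGNGCC on the transcript strand. It was found in 34 of 19684 protein-coding genes (0.173%), and 31 of these are histone genes described here. Among the 69 replication-dependent genes matched, 30 held it, and in 22 the transcript model ran on for at least 100 bases after it. The only replacement variant of the 16 with a match was H2AFX. A gene with no match may have a model that stops at the coding end, as those of HIST1H2BK, HIST1H3B and HIST1H3C do, so nothing is drawn from a missing match. Sites are shown for both replication-dependent genes that were called higher, for HIST2H2BE and HIST1H4H, which came close to the threshold, for an H3 gene and for H2AFX, with the 16-base stem-loop in capitals and 5 bases on each side.
HIST1H2AC: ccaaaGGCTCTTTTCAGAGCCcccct
HIST1H2BD: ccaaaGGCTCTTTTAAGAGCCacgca
HIST2H2BE: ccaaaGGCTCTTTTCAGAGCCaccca
HIST1H4H: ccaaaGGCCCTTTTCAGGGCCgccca
HIST1H3H: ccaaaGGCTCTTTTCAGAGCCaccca
H2AFX: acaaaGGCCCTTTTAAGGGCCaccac
The model of HIST1H2AC ran 1128 bases past the stem-loop, that of HIST2H2BE 1729 bases, that of HIST1H4H 1655 bases and that of H2AFX 1044 bases. For HIST1H2BD the transcript with the stem-loop ended 39 bases after it, and 1 further transcript, which is spliced, lacks it.

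Levels are given in FPKM, fragments per kilobase of gene model scaled to library depth. Between genes they also depend on how much of the mRNA carries a poly(A) tail. Depth ran from 16790645 to 18485701 reads per library, so that a gene model of 1 kb gained 0.0541 to 0.0596 FPKM from each read. Among markers of the line, VIM, CD44, AXL, KRT18 and KRT8 had means of 67.3 to 420 FPKM. Of 4 genes listed as low or absent in it, ESR1 and PGR had 1 and 0 reads in all, CDH1 had a mean of 0.666 FPKM, and EPCAM was present at 8.55 FPKM. Of 9 listed markers of other cell types, 8 had means under 1 FPKM, and the sum of all 9 was 1.42 and 1.43 FPKM in vehicle and 1.83 and 1.77 FPKM in MGH-CP1. Most of that sum was PDGFRB, a fibroblast and pericyte receptor, at 0.984 and 1.28 FPKM in vehicle and 1.58 and 1.59 FPKM in MGH-CP1, and its part in the histone values was not tested.

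The classes differed in the level of captured transcript, which is not that of all their mRNA. Summed over its 16 genes, the replacement class reached 707 and 667 FPKM in the vehicle libraries and 557 and 543 FPKM in the MGH-CP1 libraries, without overlap. Of this sum H2AFX alone held 124 and 119 FPKM in vehicle and 49.1 and 46.2 FPKM in MGH-CP1. Summed over 70 genes, the replication-dependent class reached 132 and 118 FPKM in vehicle and 132 and 128 FPKM in MGH-CP1, and here the groups overlapped. The replication-dependent share of histone FPKM was 15.7% and 15.0% in vehicle and 19.1% in both MGH-CP1 libraries. Within that class 4 genes, HIST1H2BK, HIST1H1C, HIST1H2BD and HIST1H2AC, took 67.6% and 66.9% of the FPKM in vehicle and 79.3% and 78.6% in MGH-CP1.

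**Figure D1:**
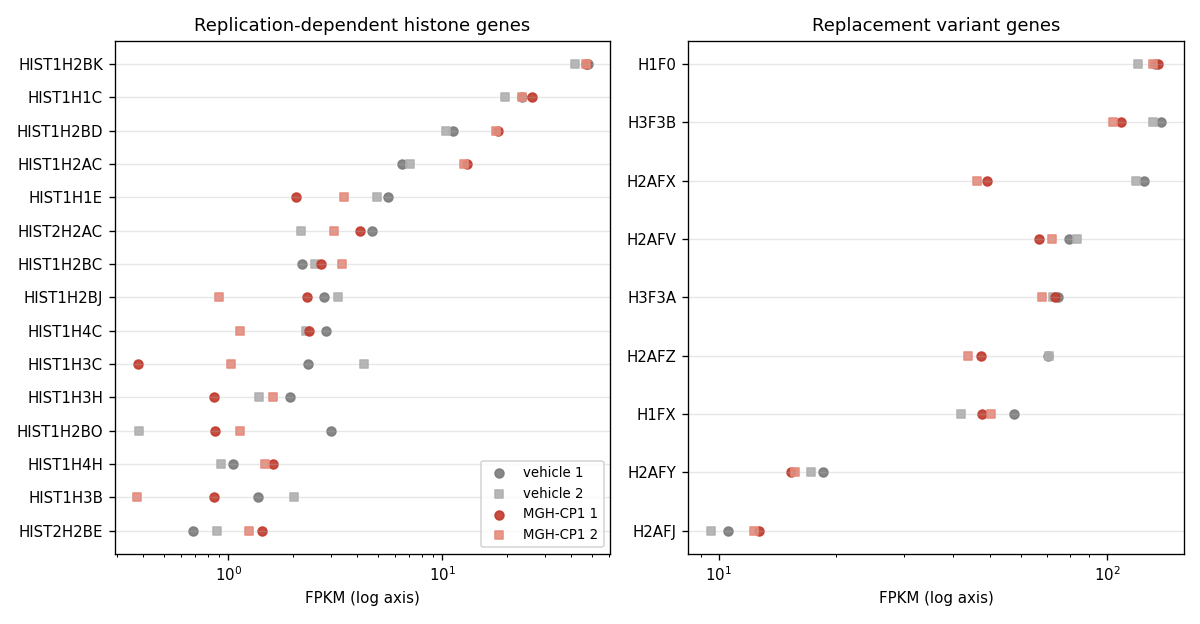
FPKM of each tested histone gene in the 4 libraries, on log axes, with 15 replication-dependent genes on the left and 9 replacement variants on the right; each point is 1 library. HIST1H2AC and HIST1H2BD lie to the right of vehicle in both MGH-CP1 libraries, and H2AFX and H2AFZ lie to the left.

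Genes were tested where their FPKM averaged 1 or more across libraries, and 15 replication-dependent genes and 9 replacement variants reached that limit. The other 55 replication-dependent genes comprise 31 with at least 1 read and 24 with none. The other 7 variants comprise 3 with a read (H2AFY2, H3F3C and H1FOO) and 4 without (H1FNT and H2AFB1, H2AFB2 and H2AFB3). Just inside the limit stood HIST2H2BE at a mean of 1.06 FPKM, and just outside it HIST1H2BN at 0.978 FPKM and HIST1H2AG at 0.976 FPKM. HIST1H3C and HIST1H3B averaged only 0.703 and 0.616 FPKM in MGH-CP1, and HIST2H2BE and HIST1H4H only 0.783 and 0.984 FPKM in vehicle. Each of them reached the limit through the group where it was higher, so its entry depended on the difference that was then tested. With limma over all 11790 genes tested, an adjusted p under 0.05 called 20.0% of genes higher and 25.1% lower. Of the 15 replication-dependent genes, 2 were called higher, 3 lower and 10 neither, shares below those of all genes in both directions, and their median log2 fold change was 0.07. With so few genes, many of them low, nothing particular to the class is read from these shares. Of the 9 variants, 1 was called higher, 5 lower and 3 neither, with a median of -0.20, beside -0.02 over all genes tested. The difference between the classes was not tested, since genes are not replicates of a treatment.

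Both groups stood fully apart, with MGH-CP1 above, in 5 of the 15 replication-dependent genes and 1 of the 9 variants, where 34.7% of all genes did so. MGH-CP1 stood fully below in 4 and in 5 genes, where 39.4% of all genes did so.

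**Figure D2:**
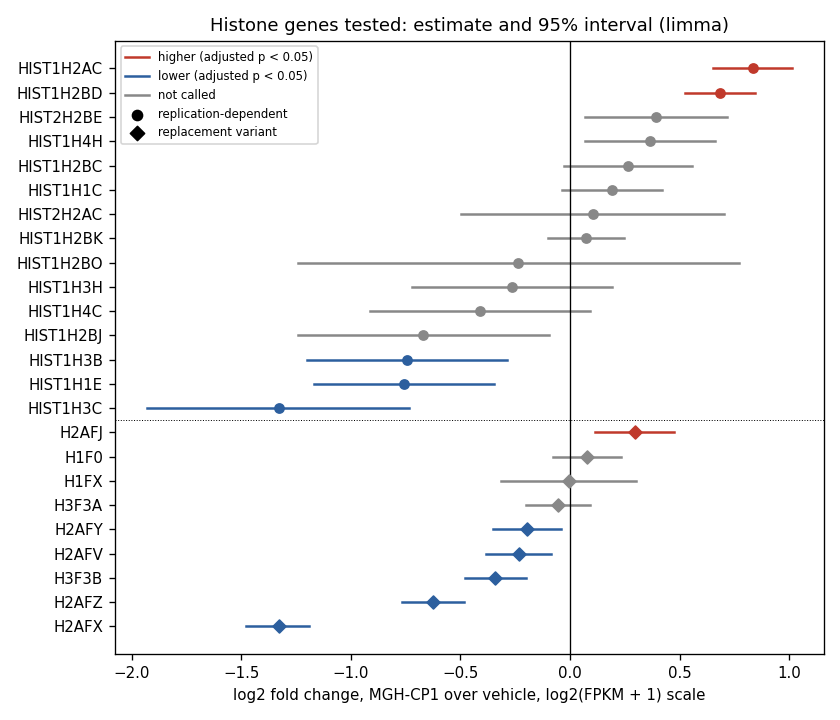
Log2 fold change of MGH-CP1 over vehicle with its 95% interval from limma, for the 24 tested histone genes, on the log2(FPKM + 1) scale. Estimates of the replication-dependent genes (circles) run from -1.33 for HIST1H3C to 0.83 for HIST1H2AC, and those of the variants (diamonds) from -1.33 for H2AFX to 0.29 for H2AFJ.

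Among linker histones, which bind the DNA between nucleosomes, HIST1H1C (H1.2) was at 23.6 and 19.7 FPKM in vehicle and 26.1 and 23.4 FPKM in MGH-CP1. Its groups overlapped and it was not called (log2 fold change 0.19 ± 0.10 SE, adjusted p = 0.151). HIST1H1E (H1.4) was at 5.58 and 4.93 FPKM in vehicle and fell to 2.06 and 3.46 FPKM, on 81 and 65 reads against 28 and 46. Its log2 change was -0.76 ± 0.17 (SE, adjusted p = 0.0107). The call was lost without a filter (adjusted p = 0.101), and the change was -0.49 without the first MGH-CP1 library. HIST1H1A, HIST1H1B and HIST1H1D had no read in any library, and HIST1H1T, the testis form, had 1.

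HIST1H2AC, a replication-dependent H2A gene on chromosome 6 (hg19, 26124373 to 26139344, plus strand), had 6.49 and 7.07 FPKM in vehicle and 13.1 and 12.6 FPKM in MGH-CP1. Both treated libraries were above both controls, with a log2 fold change of 0.83 ± 0.08 (SE, adjusted p = 0.000197). HIST1H2BD, an H2B gene of the same cluster (26158349 to 26171577, plus strand), had 11.2 and 10.4 FPKM in vehicle and 18.2 and 17.7 FPKM in MGH-CP1, a log2 change of 0.68 ± 0.07 (SE, adjusted p = 0.000289). These were the only replication-dependent genes called higher in that fit, and each kept its call under every one of the 12 alternatives run.

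HIST1H2BK, the H2B gene with the highest level in the class, was at 47.8 and 41.7 FPKM in vehicle and 47.0 in both MGH-CP1 libraries, and was not called (adjusted p = 0.453). Of the 50-base words in its GENCODE transcript of 381 bases, 74.1% also occur in other genes, so reads there may have been split. The model behind its FPKM has 820 bases, and the rest of it was not examined for shared words. HIST1H2BC, which is divergent from HIST1H2AC with 218 bases between them, was at 2.22 and 2.53 FPKM in vehicle and 2.72 and 3.40 FPKM in MGH-CP1. Its groups did not overlap, but it was not called (log2 change 0.26 ± 0.12 SE, adjusted p = 0.124). HIST2H2BE and HIST1H4H, an H4 gene, came close to the threshold. HIST2H2BE had 0.681 and 0.884 FPKM in vehicle and 1.43 and 1.25 FPKM in MGH-CP1 (adjusted p = 0.0521), and HIST1H4H had 1.05 and 0.922 FPKM against 1.62 and 1.48 FPKM (adjusted p = 0.0507). HIST2H2AC, the divergent partner of HIST2H2BE, was at 4.70 and 2.18 FPKM in vehicle and 4.10 and 3.10 FPKM in MGH-CP1, with overlap.

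HIST1H2BJ had 2.79 and 3.23 FPKM in vehicle and 2.34 and 0.903 FPKM in MGH-CP1, and was not called (log2 change -0.67 ± 0.24 SE, adjusted p = 0.0587). In HIST1H2BO, 1 vehicle library had 26 reads and the other 3, against 7 and 9 reads in MGH-CP1, so its sign depended on which control was kept.

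For the core histone H3, HIST1H3C (chromosome 6, hg19, 26045639 to 26046097) was at 2.36 and 4.28 FPKM in vehicle and 0.378 and 1.03 FPKM in MGH-CP1, on 20 and 33 reads against 3 and 8. It fell by 1.33 on the log2 scale (SE 0.25, adjusted p = 0.00492). The change was -2.16 with a pseudocount of 0.1 and -2.21 by voom, and the call was lost without a filter (adjusted p = 0.0732). HIST1H3B was at 1.38 and 2.02 FPKM in vehicle and 0.857 and 0.375 FPKM in MGH-CP1, a log2 change of -0.74 ± 0.19 (SE, adjusted p = 0.0176), on 38 reads in all. Its call was lost in 4 of 11 alternatives, with an adjusted p of 0.0512 by voom on recovered reads. HIST1H3H (adjusted p = 0.303) and the H4 gene HIST1H4C (2.87 and 2.30 FPKM against 2.37 and 1.14 FPKM, adjusted p = 0.156) overlapped between groups.

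Lowering the entry to 10 reads over the 4 libraries, with voom in limma on reads recovered from the FPKM values, let 30 replication-dependent genes be tested among 16755 genes. In that fit 16.4% of all genes were called higher and 19.1% lower, and 2 replication-dependent genes were higher and 3 lower. HIST1H2AC and HIST1H2BD were again the higher ones, HIST1H3C and HIST1H1E were again lower (adjusted p = 0.0128 and 0.0142), and HIST1H2BB joined them with 5 and 8 reads in vehicle against 1 and 0 (adjusted p = 0.0382). HIST1H3B was not called there (adjusted p = 0.0986). Over the 55 genes under 1 FPKM, the reads summed to 174 and 151 in vehicle and 104 and 110 in MGH-CP1.

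Summed by family, replication-dependent H3 genes were at 6.83 and 9.40 FPKM in vehicle and 2.49 and 4.34 FPKM in MGH-CP1. H4 genes were at 7.77 and 7.94 FPKM against 5.93 and 4.29 FPKM. H2A genes were at 17.3 and 13.6 FPKM against 20.5 and 19.3 FPKM, and H2B genes at 70.7 and 62.3 FPKM against 74.5 and 73.2 FPKM. The H3 and H4 sums were below vehicle in both treated libraries, the H2A and H2B sums were above, and the H1 sum overlapped (29.2 and 24.6 against 28.2 and 27.0 FPKM). Without HIST1H2AC the other 16 H2A genes overlapped, at 10.8 and 6.48 FPKM against 7.41 and 6.72 FPKM. Without HIST1H2BD the sum of the other H2B genes overlapped between groups too. The 2 tested H4 genes overlapped as well (3.91 and 3.22 against 3.99 and 2.62 FPKM). Without the second vehicle library the log2 ratio of the H2A sum went from 0.37 to 0.20 and that of the H2B sum from 0.15 to 0.06. With 2 libraries a group no test was made of these sums.

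Gene models in the authors' table split the class as well. A model was taken as spliced where its genomic span exceeded its length, which held for 13 genes. Their summed level was 73.6 and 68.2 FPKM in vehicle and 86.3 and 84.6 FPKM in MGH-CP1. Of 6 tested, 2 were called higher and 0 lower, with a median log2 change of 0.31. The 2 called higher were HIST1H2AC and HIST1H2BD, and without them the groups overlapped in this sum. The 57 genes without a spliced model summed to 58.2 and 49.7 FPKM in vehicle and 45.3 and 43.6 FPKM in MGH-CP1, and of 9 tested, 0 were called higher and 3 lower, with a median of -0.27. Over all genes the shares were 20.0% higher and 25.1% lower, and with so few genes nothing particular to either group is read from these counts. At an unadjusted limma p under 0.05, 1 spliced gene (HIST1H2BJ) was lower and 1 unspliced gene (HIST2H2BE) was higher (as 3419 and 2821 of the 11790 genes were), and voom on recovered reads called HIST2H2BE higher and no spliced gene lower. HIST1H1C held the largest part of that second sum. Without it, a step chosen after the values were seen, the sum was 34.5 and 29.96 FPKM in vehicle and 19.2 and 20.2 FPKM in MGH-CP1. A wider grouping, also chosen after the values were seen, added unspliced models over 1000 bases such as HIST2H2BE to the spliced ones. It gave 20 genes with 75.4 and 70.2 FPKM against 89.0 and 86.6 FPKM, and medians of 0.36 in 7 tested genes and -0.34 in the 8 others.

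**Figure D3:**
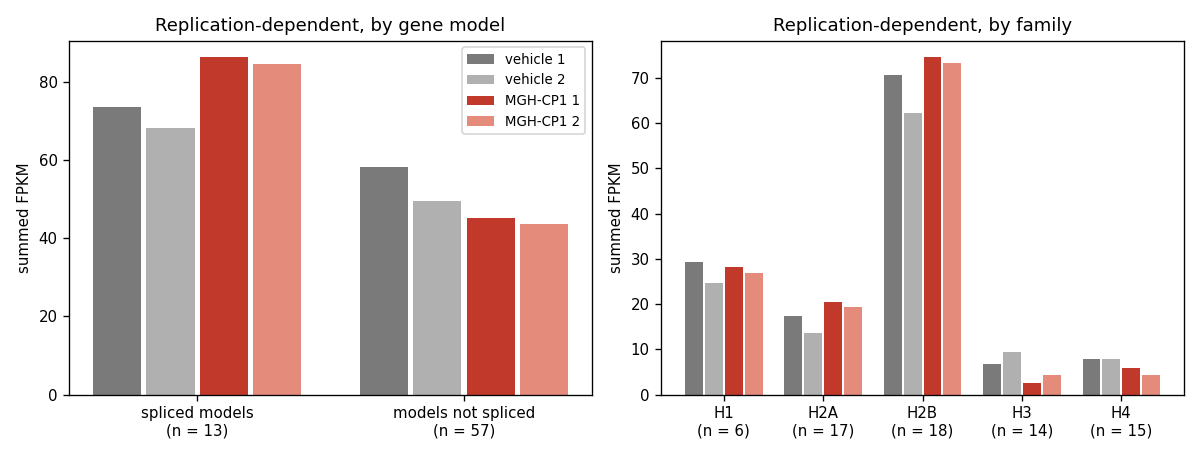
Summed FPKM per library of the 70 replication-dependent genes, on the left by whether the gene model is spliced and on the right by family; each bar is 1 library and axes start at 0. Spliced models and the H2A and H2B families were higher in both MGH-CP1 libraries than in either vehicle library. Without HIST1H2AC and HIST1H2BD these sums overlapped between groups. Models not spliced and the H3 and H4 families were lower in both MGH-CP1 libraries.

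Among the variants, H2AFX, the H2A.X histone phosphorylated at DNA breaks, moved most. It lies on chromosome 11 (hg19, 118964564 to 118966177, minus strand) and was at 124 and 119 FPKM in vehicle and 49.1 and 46.2 FPKM in MGH-CP1. Its mean was 2.55-fold lower, with a log2 change of -1.33 ± 0.06 (SE, adjusted p = 1.93e-05). H2AFZ, which encodes an H2A.Z of promoter nucleosomes, fell from 70.6 and 71.0 FPKM to 47.3 and 43.9 FPKM (log2 change -0.63 ± 0.06 SE, adjusted p = 0.000225). Its paralog H2AFV was at 79.9 and 83.8 FPKM in vehicle and 66.6 and 72.2 FPKM in MGH-CP1 (log2 change -0.24 ± 0.06 SE, adjusted p = 0.0198).

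H3F3A and H3F3B encode the same protein, H3.3, the replacement H3 of active genes. H3F3B fell from 138 and 131 FPKM to 109 and 103 FPKM (log2 change -0.34 ± 0.06 SE, adjusted p = 0.00319), while H3F3A was at 74.6 and 72.4 FPKM in vehicle and 73.6 and 67.9 FPKM in MGH-CP1 and was not called (adjusted p = 0.498). H3F3B overlaps UNK on the opposite strand by 1294 bases, and UNK had a mean of 5.22 FPKM in vehicle and 4.98 FPKM in MGH-CP1. Whether the counting used strand is not given in the sources used here.

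H2AFJ, which encodes H2A.J, was the only variant called higher, at 10.5 and 9.54 FPKM in vehicle and 12.7 and 12.3 FPKM in MGH-CP1 (log2 change 0.29 ± 0.08 SE, adjusted p = 0.0171). The macroH2A gene H2AFY was at 18.6 and 17.3 FPKM in vehicle and 15.4 and 15.7 FPKM in MGH-CP1, a log2 change of -0.20 ± 0.07 (SE, adjusted p = 0.0467) whose call was lost in 7 of 12 alternatives. Its paralog H2AFY2 had 16 reads in all. Calls of H2AFJ and H2AFV were each lost in 3 of 12 alternatives, and without the first MGH-CP1 library the adjusted p was 0.107 and 0.186.

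The linker variants did not pass. H1F0 (H1.0), a linker histone of non-dividing cells, was at 133 and 120 FPKM in vehicle and 135 and 131 FPKM in MGH-CP1, with an interval of the log2 change from -0.08 to 0.23. H1FX was at 57.6 and 42.0 FPKM in vehicle and 47.8 and 50.2 FPKM in MGH-CP1, so that both treated libraries lay between the controls. Its log2 change was 0.22 without the first vehicle library (adjusted p = 0.0163) and -0.23 without the second (adjusted p = 0.0118).

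Position set apart the genes without reads. Of the 55 replication-dependent genes on chromosome 6, a run of 15 neighbours from HIST1H4D to HIST1H2BI (hg19, 26188938 to 26273622, 84.7 kb) held 14 with no read in any library, and 1 read on HIST1H3E was all that the run gave over the 4 libraries. It lies between HIST1H2BE, with 9 reads, and HIST1H4H, with 91. In the rest of that cluster 3 of 19 genes had no read, and in the cluster further along the chromosome 5 of 21. In the GENCODE 29 models, some of which stop at the coding end, 13 of the 15 genes share under 5% of their 50-base words with other genes, and HIST1H3D and HIST1H2AD share more. A count of 0 allows up to 3 reads, which is 0.115 to 0.487 FPKM in the 14 genes of the run without a read, for counting error alone. The cause of the empty run was not tested.

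**Figure D4:**
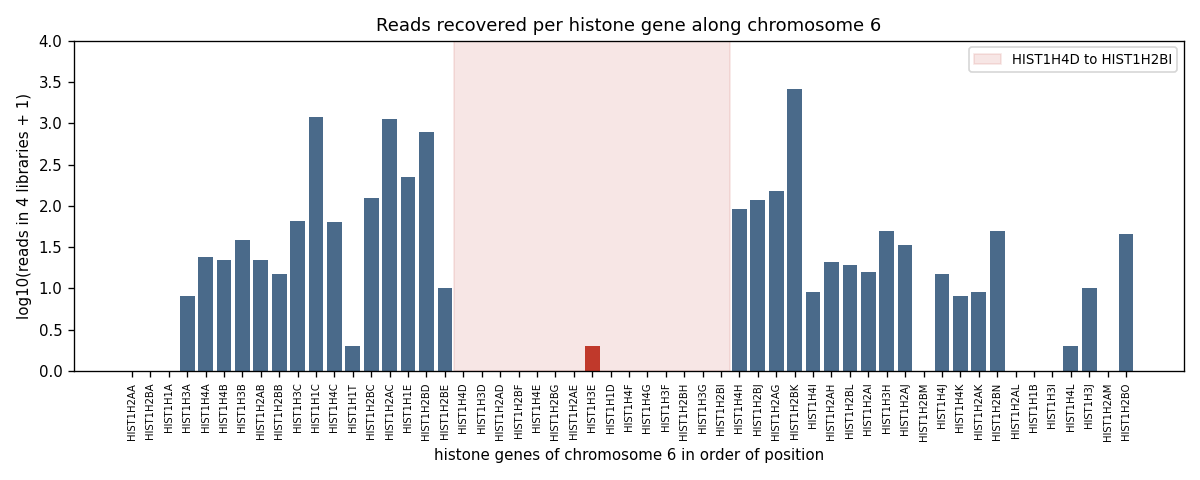
Reads over the 4 libraries, as log10(reads + 1), for the 55 replication-dependent histone genes of chromosome 6 in order of position, with the run from HIST1H4D to HIST1H2BI shaded. The shaded run holds 1 read, on HIST1H3E, and its neighbours HIST1H2BE and HIST1H4H hold 9 and 91.

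Promoters were compared by motifs in RefSeq sequence (GRCh38.p14, 250 bases before to 50 after the start, the first listed start where a gene has several). A promoter was matched for 74 of 86 members, 60 replication-dependent and 14 variants. CCAAT on either strand stood in 83.3% of replication-dependent promoters, 78.6% of variant promoters and 34.6% of all 35116 promoters of the same length. TATAAA stood in 66.7%, 28.6% and 11.5%, ATGCAAAT (the octamer) in 35%, 7.14% and 1.77%, and TTTNGCGC (an E2F-type word) in 20%, 0% and 1.79%. Within the replication-dependent class the octamer was in 11 of 16 H2A, 9 of 13 H2B and 1 of 12 H3 promoters and in 0 of 6 H1 and 0 of 13 H4 promoters. CCAAT was in every matched H1, H2A, H2B and H3 promoter but in only 3 of 13 H4 promoters. Both strands were searched and the words can share bases. Windows of neighbouring genes can overlap, as in divergent pairs such as HIST1H2AG and HIST1H2BJ, so 1 site can count for 2 genes. The only H3 promoter with the octamer, that of HIST1H3D, is the same window as that of HIST1H2AD (chr6:26199244-26199543). The shares and family counts are therefore not of separate sites. A match is a description of letters and not of binding.

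Sequences of 180 bases that end just before the start are shown for a gene called higher, a gene called lower and the variant that moved most, with all matches in capitals (ATTGG is CCAAT on the other strand). Their positions on GRCh38.p14 are chr6:26123992-26124171 on the plus strand for HIST1H2AC, chr6:26045204-26045383 on the plus strand for HIST1H3C, and chr11:119095466-119095645 on the minus strand for H2AFX.
HIST1H2AC: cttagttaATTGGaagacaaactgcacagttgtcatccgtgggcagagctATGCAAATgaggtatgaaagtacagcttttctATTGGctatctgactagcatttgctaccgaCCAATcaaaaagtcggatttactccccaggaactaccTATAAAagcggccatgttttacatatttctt
HIST1H3C: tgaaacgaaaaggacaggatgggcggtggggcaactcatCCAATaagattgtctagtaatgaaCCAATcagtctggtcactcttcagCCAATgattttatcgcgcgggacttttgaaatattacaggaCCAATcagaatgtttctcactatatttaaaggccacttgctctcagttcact
H2AFX: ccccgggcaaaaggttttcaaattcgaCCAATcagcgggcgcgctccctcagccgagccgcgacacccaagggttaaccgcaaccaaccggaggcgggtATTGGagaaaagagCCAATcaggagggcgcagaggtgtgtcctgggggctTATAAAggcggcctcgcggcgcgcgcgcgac
All 3 hold CCAAT, HIST1H2AC and H2AFX also hold TATAAA, and of these only HIST1H2AC holds the octamer.

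The factors that make, cut and turn over histone mRNA are in part shared with other mRNAs, and 18 listed genes for them were tested. Of these 3 were called higher and 12 lower, where 20.0% and 25.1% of all genes were, and their median log2 change was -0.47. SLBP, which binds the stem-loop, fell from 42.8 and 47.1 FPKM to 20.6 and 20.0 FPKM (log2 change -1.11 ± 0.07 SE, adjusted p = 4.29e-05). CASP8AP2 (FLASH), which recruits the cleavage complex, fell from 3.96 and 4.77 FPKM to 2.14 and 2.12 FPKM, and CSTF2, a cleavage stimulation subunit, from 15.9 and 15.2 FPKM to 9.28 and 8.16 FPKM. NPAT, the activator of histone transcription at the histone locus body, fell from 8.25 and 8.78 FPKM to 5.02 and 5.71 FPKM. The 3 higher genes were ZCCHC6, a terminal uridylyltransferase (8.71 and 9.88 to 13.2 and 13.3 FPKM), HINFP, a regulator of H4 genes (5.85 and 5.66 to 6.80 and 7.21 FPKM), and SYMPK, the scaffold symplekin (20.6 and 19.5 to 23.7 and 23.9 FPKM). The call of HINFP (adjusted p = 0.0432) was lost without a filter (0.0929), with the replicate number as a block (0.0503) and when any 1 library was left out (0.0564 to 0.234). The call of SYMPK (adjusted p = 0.0179) was lost without either MGH-CP1 library (0.102 and 0.118).

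Histone chaperones carry histones to DNA, and of 26 tested 18 were called lower and 0 higher by limma, where 25.1% and 20.0% of all genes were, with a median log2 change of -0.41. At an unadjusted p under 0.05 (23.9% of all genes), and by voom (22.1%), 0 were higher as well. CHAF1B and CHAF1A, subunits of the CAF-1 complex that deposits H3 and H4 at replication forks, fell from 16.7 and 18.1 to 3.48 and 3.91 FPKM and from 28.4 and 25.9 to 6.55 and 7.59 FPKM. ASF1B, an H3-H4 chaperone, fell from 40.8 and 43.1 to 13.2 and 14.0 FPKM (log2 change -1.56 ± 0.06 SE, adjusted p = 1.64e-05), while its paralog ASF1A was at 5.31 and 5.57 against 5.61 and 4.89 FPKM (adjusted p = 0.718). NASP, which holds a reserve of H3 and H4, fell from 42.4 and 43.1 to 16.3 and 16.2 FPKM.

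Of the chaperones that place H3.3, HIRA fell from 2.50 and 2.38 to 1.78 and 1.51 FPKM (adjusted p = 0.0329), and DAXX (adjusted p = 0.656), ATRX (0.211), UBN1 (0.625) and CABIN1 (0.248) were not called. CENPA, the centromeric H3, fell from 12.4 and 11.9 to 7.09 and 6.74 FPKM (log2 change -0.74 ± 0.07 SE, adjusted p = 0.000292), and its chaperone HJURP from 20.1 and 21.1 to 9.29 and 9.11 FPKM. Genes of S phase fell beside them: 16 of 16 listed, MCM2 to MCM7 among them, were called lower, beside 25.1% of all genes, and their FPKM summed to 759 and 728 in vehicle and 210 and 216 in MGH-CP1. Their part in the histone values was not tested.

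**Figure D5:**
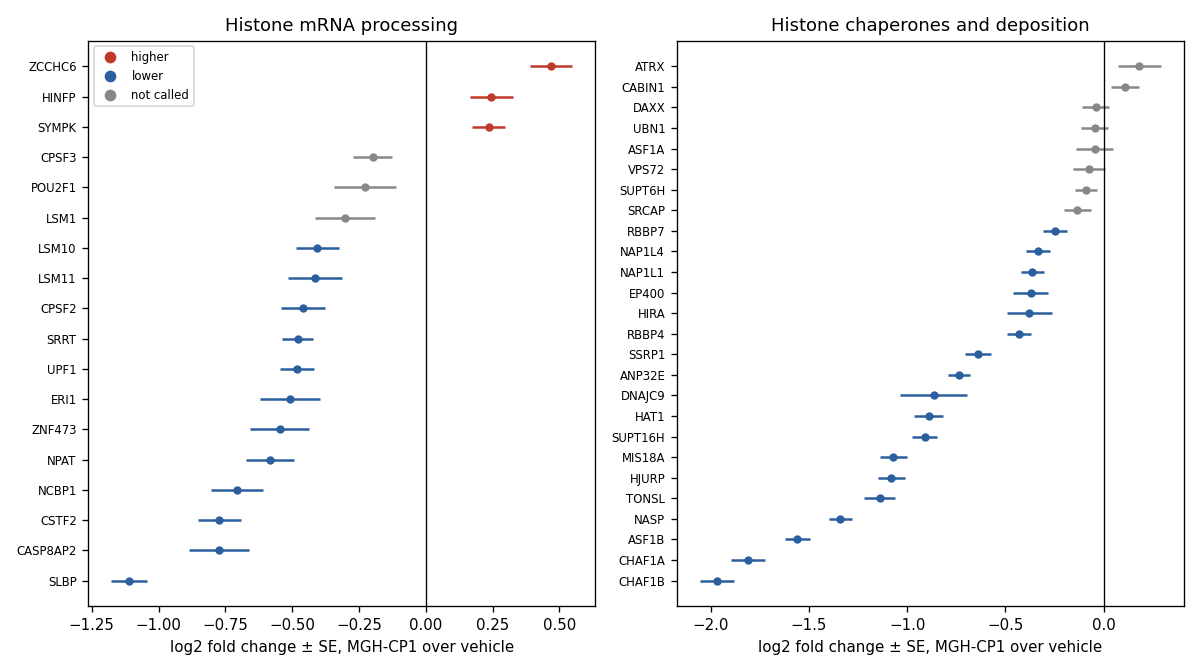
Log2 fold change of MGH-CP1 over vehicle with its SE for 18 histone mRNA processing genes and 26 chaperone and deposition genes, on the log2(FPKM + 1) scale. Of the processing genes 12 were called lower and 3 higher, with SLBP lowest at -1.11, and of the chaperones 18 were lower and none was higher.

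RNAs that lack a poly(A) tail differed widely in level, so they give no single measure of how much such RNA the libraries held. Of 5 such genes with values, 2 were tested. The others, TERC, SCARNA2 and SNORD3A, had means of 0.106, 0.844 and 0.842 FPKM. RN7SL1, the RNA of the signal recognition particle, was at 1135 and 1057 FPKM in vehicle and 929 and 951 FPKM in MGH-CP1 (log2 change -0.22 ± 0.07 SE, adjusted p = 0.0465), and RPPH1, the RNA of RNase P, was at 2.03 and 2.33 against 2.17 and 2.31 FPKM (adjusted p = 0.861). The part of carried-over RNA without a tail in the histone values was not tested.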

How the data were processed

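Poly(A) RNA was sequenced, per the labels' protocols, and the authors deposited 1 table of FPKM values for 4 libraries. Base calling with CASAVA 1.8, alignment with STAR and the build hg19 are named in the submitters' processing notes; for the counter, its use of strand and the annotation the sources used here give no name. Each of the 4 value columns was matched to samples by name. FPKM times gene length gave whole multiples of 1 step in each library (100% within 0.01), which were taken as reads.

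The main comparison used limma 3.58.1 in R 4.3.3 on log2(FPKM + 1), with a mean-variance trend, over the 11790 genes that averaged 1 FPKM or more, and Benjamini-Hochberg adjustment over all of them. Such fold changes understate those of low genes. The fit was also run on simulated reads in which far fewer genes changed than were called here. Its outcome there does not carry over to these data. Python 3.11.15, pandas 2.3.3, numpy 2.4.6 and matplotlib 3.10.9 made the tables and plots. Alternatives were a pseudocount of 0.1, no filter, a mean of at least 5 FPKM, median-of-ratios scaling, voom on the recovered reads, no trend, the replicate number as a block, and leaving out each library. Voom with at least 10 reads was chosen after seeing the data.

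The histone genes, the other lists and the tests were chosen with earlier results of these data known. Named were a set list of histone, processing and chaperone genes, every histone gene called, the 6 replication-dependent genes of highest mean, and the 3 largest called rises and falls of the processing and chaperone lists; other genes named were picked after their values were seen. Transcripts were those of GENCODE 29 on GRCh38, matched by identifier for 48 genes and by symbol for 37, and served for the stem-loop and for shared 50-base words only.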

Additional observations from a re-analysis of the deposited data

How the results depend on the processing

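Of 432 values recomputed for 37 named genes, 383 kept direction and call, and 19 genes did so throughout. Replication-dependent genes called higher rose from 2 to 4 without the mean-variance trend (19.0% of all genes), and those called lower went from 3 to 0 at a mean of at least 5 FPKM, where 4 were tested (29.9% of all genes). Variants called higher went from 1 to 0, and lower from 5 to 3, without a filter (6.36% and 8.25% of all genes), and lower to 3 without the trend (23.9%). Replication-dependent genes called lower stayed at 3 without a filter, but they were other genes. HIST1H3C, HIST1H1E and HIST1H3B all lost their calls there (limma adjusted p = 0.0732, 0.101 and 0.114). Leaving out each library in turn called 12.4% to 21.7% of all genes higher and 17.4% to 26.2% lower. It gave 2 to 6 replication-dependent genes higher (6 without vehicle replicate 1) and 2 to 5 lower (5 without MGH-CP1 replicate 1). There were 0 to 2 variants higher (0 without either MGH-CP1 library, 2 without vehicle replicate 1) and 3 to 6 lower (3 without MGH-CP1 replicate 1), and 1 to 3 processing and chaperone genes higher (1 without either MGH-CP1 library). An arm left with 1 library is assumed to vary like the others. Without vehicle replicate 1, H1FX turned to 0.22 and HIST1H2BO to 0.53, and without vehicle replicate 2 they were -0.23 and -1.01. Genes not called also changed sign: H1FX was 0.029 without MGH-CP1 replicate 1 and 0.000543 with median-of-ratios scaling, H3F3A was 0.00228 without MGH-CP1 replicate 2, HIST1H2BK was -0.023 without vehicle replicate 2 (0.169 without vehicle replicate 1), and HIST2H2AC was -0.318 without vehicle replicate 2 and -0.0539 without MGH-CP1 replicate 1. Summed over members of at least 1 FPKM only, the log2 ratio of replication-dependent H2A moved from 0.37 to 0.69 and that of H4 from -0.62 to -0.11. Another scaling moved the median gene by 0.0067. Causes were not tested.

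Same-numbered libraries did not deviate together across genes (correlation 0.050). With 2 libraries a group this cannot decide whether the numbers pair them, and no label says that they do. With the replicate number as a block (20.8% of all genes higher and 25.8% lower), 3 replication-dependent genes were higher and 3 lower, 1 variant was higher and 4 were lower, and 2 processing and chaperone genes were higher and 30 lower. H2AFY and HINFP lost their calls (adjusted p = 0.0503 for both) and HIST1H1C gained one (0.0436).

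Reads limit the low genes: 16 of the 31 replication-dependent genes under 1 FPKM with a read had fewer than 10.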

Other observations

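Beside the protein-coding histone genes, the table lists 32 other rows with the same symbol starts, 31 pseudogenes and 1 antisense gene, and 18 of them had no read. Of these rows 3 had a mean of at least 1 FPKM. H3F3AP4, a pseudogene of H3F3A, was at 6.46 and 6.18 FPKM in vehicle and 7.01 and 6.40 FPKM in MGH-CP1, and H3F3AP6 at 3.95 and 1.88 against 2.25 and 2.73 FPKM. HIST2H2BA was at 2.09 and 2.22 against 1.46 and 2.82 FPKM. Reads of such copies and of their parent genes may have been split in counting.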
